A study of Canis lupus familiaris with 6 samples.

Results

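The genes described here were the integrins and the proteins that link them to actin in focal adhesions, measured in transformed dog kidney cells. They were chosen by name, as every non-control probe of the array whose gene name was ITGA or ITGB followed by a letter or digit, or was 1 of 21 named focal adhesion proteins. The rule found 75 of 43603 probes, for 40 of 34378 distinct names in the design. Of the 21 names, 15 had a probe under that name, and BCAR1, FERMT2, PARVA, TNS3, TNS4 and ZYX had none. No probe carried the name ITGB4 either. The prefix also took in ITGB1BP1, ITGB1BP2 and ITGBL1, which are not integrin subunits.

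The cells were MDCK cells, an established line of dog kidney epithelium, and the study asked which genes change in Ras-transformed cells when neighbours without RasV12 surround them. Every sample consisted of β-cat ΔN/RasV12 cells, which carry an mCherry-tagged β-catenin lacking its first 131 residues under a constitutive EF1 promoter, and GFP-tagged RasV12 under a tetracycline-inducible promoter. In the single culture (3 arrays) these cells grew alone, and in the mix culture (3 arrays) they grew with 10 β-cat ΔN cells, which lack RasV12, per RasV12 cell. Both groups grew on dishes coated with type I collagen, received tetracycline for 24 h, were detached with Accutase and were sorted for GFP. All arrays therefore came from 1 line with both transgenes, with no untransformed or uninduced sample in either group. The labels do not say whether the arrays of a group came from separate cultures, so p-values measure the spread between these arrays, which may be technical. In sorted bulk RNA, fewer cells with a transcript and less transcript per cell cannot be told apart.

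Integrins are pairs of an alpha and a beta subunit that span the membrane and bind matrix proteins outside the cell. Inside, talin and kindlin bind the beta tail and switch the pair to its active state, vinculin and the complex of ILK with PINCH and parvin tie it to actin, and the kinases FAK and SRC signal from the site through adaptors such as paxillin. In kidney epithelium, integrins anchor the basal side of cells to collagen and laminin, and pairs that hold ITGAV can also release TGF-beta from its latent form.

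Probes of 60 bases for 3 of the genes described below are shown first, because a microarray value is the signal at exactly such a stretch. Both TLN2 probes were dim, and A_11_P201538 was well above background on only 1 of 3 mix culture arrays. Each is written 5′ to 3′ on the transcript strand and in lower case throughout, with its position on CanFam3.1 as the files give it.

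ITGAV A_11_P057346, chr36:28886832-28886891, plus strand: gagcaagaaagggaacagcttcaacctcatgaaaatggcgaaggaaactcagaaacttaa

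ITGB8 A_11_P0000020970, chr14:34443725-34443784, plus strand: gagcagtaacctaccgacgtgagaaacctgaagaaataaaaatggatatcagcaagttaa

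TLN2 A_11_P201538, chr30:27412417-27412476, plus strand: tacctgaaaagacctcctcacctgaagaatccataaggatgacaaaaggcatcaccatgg

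TLN2 A_11_P0000023527, chr30:27448570-27448629, plus strand: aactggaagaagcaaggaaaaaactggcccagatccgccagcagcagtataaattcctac

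The share of G and C in these probes was 41.7% for ITGAV, 38.3% for ITGB8, and 45% and 46.7% for the TLN2 probes in the order shown.

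Levels are given as normalised log2 intensity, that is, log2 of the background-subtracted signal minus the 75th percentile of its array. A value of 0 thus lies at that percentile, and levels are compared between arrays for 1 probe but not between probes. Replicate 1 of each group lay on slide 1 and the other 4 arrays on slide 2. Slides differed for 47.2% of the 26621 tested probes and for 32 of the 56 tested member probes (57.1%), so each comparison below is given without and with the slide as a block. Of the 32, 16 were higher and 16 lower on slide 2.

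Of the 75 member probes, 54 were well above background on all 6 arrays, 5 on some and 16 on none. A total of 56 probes for 28 genes were bright enough to test, meaning that all 3 arrays of the single culture, the mix culture or both read well above background. Without a block, limma called 0 of the 56 at an adjusted p under 0.05, against 0.883% of all tested probes. The smallest adjusted p was 0.0512 for VASP and the next was 0.273. At an unadjusted p under 0.05 there were 8 member probes (14.3%), against 8.71% of all tested probes. The methods' t-test also gave 8 at an unadjusted p under 0.05, a count that has no share over all tested probes beside it. After adjustment it called 0, against 8 of all tested probes.

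With the slide as a block, limma called 7 of the 56 probes (12.5%), against 7.2% of all tested probes. They belonged to 4 genes. ITGAV (3 probes), TLN2 (2 probes) and VASP (1 probe) read lower in the mix culture and ITGB8 (1 probe) read higher. The 6 lower probes were 10.7% of those tested, against 3.22% of all tested probes. Among these, TLN2 A_11_P201538 entered the test only through the single culture, since only 1 of 3 mix culture arrays read well above background. Its call is no support for a change, although the 12.5% and 10.7% still count it. Restricted to probes that cleared background on all 6 arrays (54 members), the same fit called 7 (13%, against 7.22% of all such probes), 6 of them lower (11.1%, against 3.45%). That probe was then absent and TLN2 A_11_P127781 was called (adjusted p 0.0441). Probes of 1 gene share their transcript, so these 7 probes are not 7 separate observations. With the replicate number as a block, limma called 6 probes (10.7%, against 5.26% of all), and a TLN2 probe was lost.

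**Figure D1:**
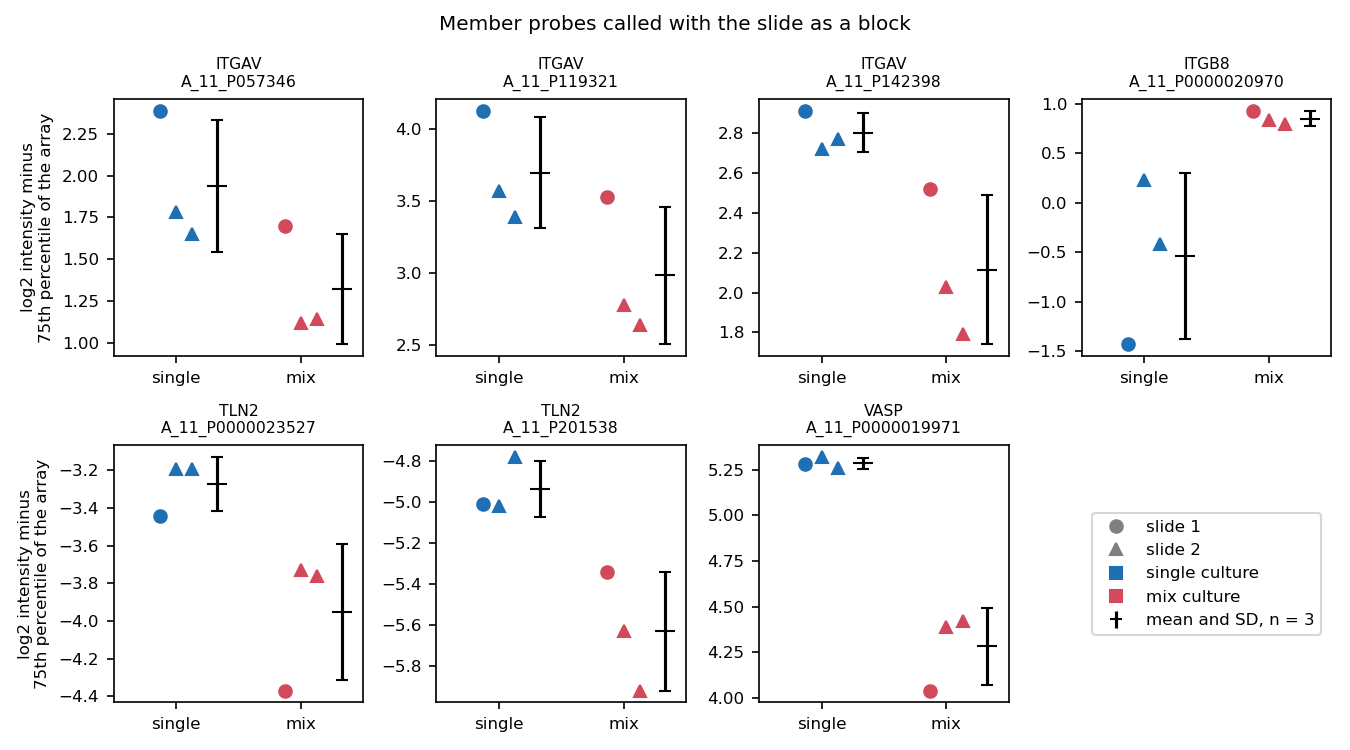
Normalised log2 intensity of the 7 probes called with the slide as a block, 1 point per array, by culture (colour) and slide (shape), with the mean and SD of 3 arrays beside them. Each panel has its own vertical axis. On each slide the mix culture lies below the single culture for ITGAV, TLN2 and VASP, and above it for ITGB8. TLN2 A_11_P201538 was well above background on only 1 of 3 mix culture arrays.

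Most members moved little. The log2 difference, mix minus single culture, ran from -1.01 to 1.39 over the tested member probes and was under 0.5 in size for 48 of them (85.7%, against 90.5% of all tested probes). It was at least 1 in size for 2 probes (3.57%, against 2.27%). The median difference was -0.11, against -0.05 for all tested probes, and 42 member probes lay below 0 and 14 above (75% below, against 58% of all). With the slide as a block, the 95% interval lay wholly within a 2-fold change either way for 52 of the 56 probes (92.9%, against 93.9% of all). The groups did not overlap for 8 probes (14.3%, against 16.5% of all), 7 of them lower in the mix culture (12.5%, against 8.66%).

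**Figure D2:**
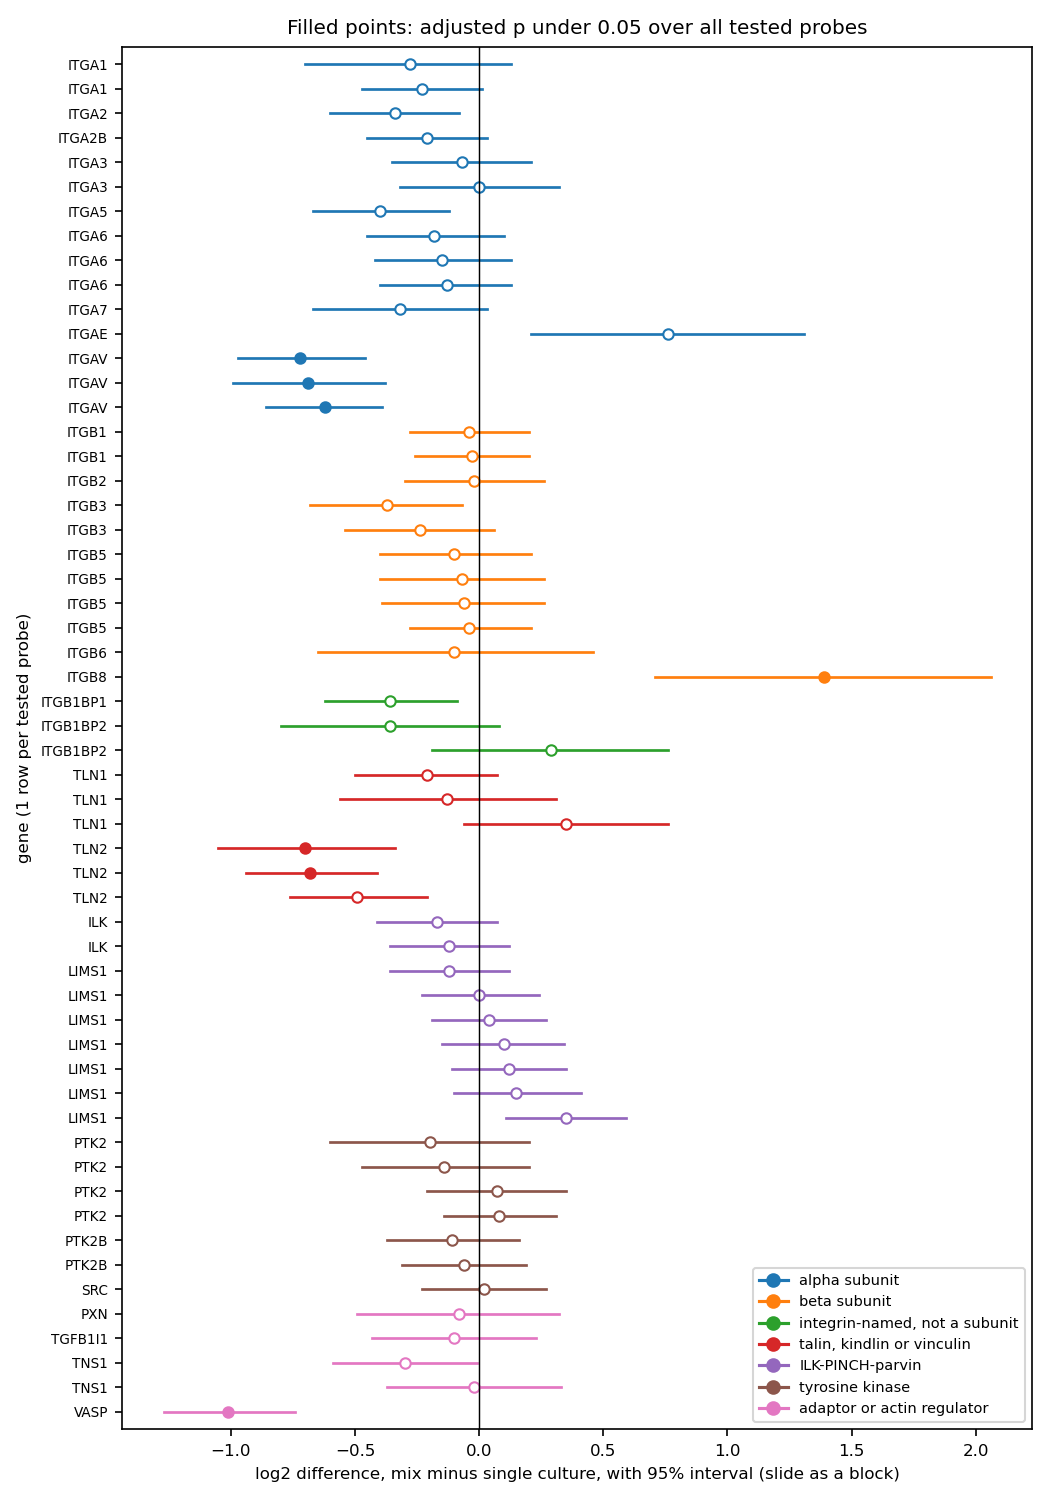
Difference in normalised log2 intensity, mix minus single culture, for the 56 tested member probes, with its 95% interval from the fit with the slide as a block. Colours give the role of the gene, and filled points mark the 7 probes with an adjusted p under 0.05. All 3 ITGAV probes and all 3 TLN2 probes lie below 0, while most probes of the other genes have intervals across 0.

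Among the alpha subunits, which set much of the choice of matrix ligand, 15 probes for 9 genes were tested. Only ITGAV was called, in the fit with the slide as a block. ITGAV encodes the alpha V chain, which binds vitronectin, fibronectin and latent TGF-beta with several beta partners. Its probe A_11_P119321 (chr36:28890463-28890522) read 4.13, 3.57 and 3.39 in the single cultures and 3.53, 2.78 and 2.64 in the mix cultures, in replicate order. The groups overlapped because slide 1 was brighter in both, and within each slide every mix culture was below every single culture. The difference was -0.72 ± 0.11 (SE, slide as a block, n = 3 per group), a 1.64-fold fall, with an adjusted p of 0.00866 by limma, and it was -0.61 on slide 1 and -0.77 on slide 2.

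The other ITGAV probes, which did not overlap the first or each other, gave differences of like size. A_11_P057346, the probe shown above, read 2.39, 1.78 and 1.65 in the single cultures and 1.70, 1.12 and 1.14 in the mix cultures. Its groups overlapped across slides but not within them, and the difference was -0.62 ± 0.10 (SE, adjusted p 0.011 by limma with the slide block). A_11_P142398 (chr36:28889783-28889842) read 2.91, 2.72 and 2.77 against 2.52, 2.03 and 1.79. Here the groups did not overlap, with a difference of -0.69 ± 0.13 (SE, adjusted p 0.0219 by limma with the slide block). Without the block the adjusted p-values of these 3 probes by limma were 0.359 to 0.571.

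The collagen and laminin receptor chains of epithelium were not called in either fit. ITGA2, a collagen receptor chain, averaged 1.13 ± 0.28 in the single and 0.79 ± 0.20 in the mix cultures (SD, n = 3), with an interval of the difference from -0.60 to -0.08 with the slide block (adjusted p 0.112 by limma). ITGA3, a laminin receptor chain, averaged 5.50 ± 0.40 and 5.43 ± 0.46, with an interval from -0.35 to 0.21 for the brightest probe. ITGA6, the laminin receptor chain found in hemidesmosomes, averaged 4.81 ± 0.22 and 4.63 ± 0.13, and its 3 probes, 2 of which share 52 bases, gave differences of -0.18 to -0.13. ITGA5, the fibronectin receptor chain, averaged -1.40 ± 0.65 and -1.80 ± 0.60, with an interval from -0.67 to -0.12 (adjusted p 0.0896 by limma with the slide block).

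ITGAE, singled out after its values were seen, had the highest difference of an alpha chain. It pairs with ITGB7 and binds E-cadherin. It read -1.85, -0.80 and -0.47 in the single and -0.41, -0.50 and 0.06 in the mix cultures. The groups overlapped, and the difference was 1.44 on slide 1 and 0.42 on slide 2 (adjusted p 0.0986 by limma with the slide block). The remaining tested alpha chains, ITGA1, ITGA2B and ITGA7, gave differences of -0.32 to -0.21 and were not called. The -0.32 was that of ITGA7, which was dim and entered the test only through the single culture. Only 2 of 3 mix culture arrays read well above background at its probe, so this is not a measured fold. ITGA1, a collagen receptor chain whose groups did not overlap at 1 of 2 probes (A_11_P0000024343), read 1.73, 1.60 and 1.68 in the single and 1.38, 1.42 and 1.52 in the mix cultures (adjusted p 0.209 by limma with the slide block). Over the 15 alpha subunit probes, that of ITGA7 included, 13 lay below 0 and 2 above, with a median of -0.23.

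Among the beta subunits, whose cytoplasmic tails bind talin and kindlin, 11 probes for 6 genes were tested, and ITGB8 alone was called with the slide as a block. ITGB8 encodes a beta chain that pairs with ITGAV and releases latent TGF-beta. Its single cultures read -1.43, 0.23 and -0.42 and its mix cultures 0.93, 0.83 and 0.79. The mix cultures were alike, the single cultures were spread, and the groups did not overlap. The difference was 1.39 ± 0.29 (SE, slide as a block, n = 3 per group), a 2.62-fold rise, with an adjusted p of 0.0302 by limma. It was 2.36 on slide 1 and 0.90 on slide 2. Without the block the adjusted p was 0.275 by limma, and the interval with the block ran from 0.71 to 2.06.

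The other beta chains were not called. ITGB1, the common partner of the collagen, laminin and fibronectin receptor chains, averaged 4.23 ± 0.47 in the single and 4.19 ± 0.44 in the mix cultures (SD, n = 3) at its brightest probe. Its interval ran from -0.28 to 0.20 with the slide block, and slide 1 was higher in both groups. ITGB6, another partner of ITGAV, averaged -2.38 ± 0.38 and -2.47 ± 0.39, with an interval from -0.65 to 0.46. ITGB3, whose chain binds vitronectin with ITGAV, gave -0.37 and -0.24 at 2 probes, and the groups did not overlap at the first (A_11_P0000019880, adjusted p 0.129 by limma with the slide block). The 4 ITGB5 probes, 2 of which share 39 bases, gave -0.10 to -0.04. The ITGAV partners comprised 1 called higher, ITGB8, and 4 not called.

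ITGB1BP1 and ITGB1BP2 are cytoplasmic proteins that bind the tail of ITGB1 (ICAP-1 and melusin). ITGB1BP1 read 3.92, 3.73 and 3.77 in the single and 3.33, 3.51 and 3.51 in the mix cultures. The groups did not overlap, but the difference of -0.36 ± 0.11 (SE) was not called with the slide block (adjusted p 0.103 by limma). The 2 ITGB1BP2 probes disagreed in sign, at 0.29 and -0.36, and neither was called.

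Talin links the beta tail to actin and is the final switch for integrin activation. TLN2, a paralog of TLN1, had 3 tested probes, all below 0. A_11_P0000023527 read -3.44, -3.19 and -3.19 in the single and -4.37, -3.73 and -3.76 in the mix cultures. The groups did not overlap, and the difference was -0.68 ± 0.12 (SE, slide as a block), a 1.60-fold fall, with an adjusted p of 0.0128 by limma. A_11_P201538 read -5.01, -5.02 and -4.78 against -5.34, -5.63 and -5.92, and it was well above background on 3 single but only 1 mix culture array.

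That second TLN2 probe thus passed the filter only through the group where it was brighter. Its fitted difference was -0.70 (adjusted p 0.0344 by limma with the slide block and 0.0606 with the replicate block). That difference rests in large part on mix culture values not well above background and is not a measured fold. The third, A_11_P127781, lay just outside the call at -0.49 ± 0.12 (SE, adjusted p 0.0501). Both called TLN2 probes were dim, and the size of the difference depended on the background correction. With normexp and the slide block it shrank to -0.21 for A_11_P0000023527 and -0.12 for A_11_P201538, with adjusted p-values by limma of 0.118 and 0.318. TLN1, the main talin of most cells, had 3 tested probes with differences of -0.21 to 0.35, and its brightest averaged 2.27 ± 0.20 and 2.14 ± 0.43 (SD, n = 3), with an interval from -0.56 to 0.31.

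In the complex of ILK, PINCH and parvin, ILK and LIMS1 (PINCH) were tested, with 9 probes and none called. ILK read 1.53, 2.85 and 2.83 in the single and 1.25, 2.65 and 2.80 in the mix cultures at its brightest probe. Slide 1 was lower in both groups, by 1.40, and the difference between cultures had an interval of -0.41 to 0.07. The 7 LIMS1 probes gave differences of -0.12 to 0.35, 2 of them sharing 55 bases of the genome.

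The kinases had 7 tested probes, with differences of -0.20 to 0.08 and none called. PTK2 (FAK), the kinase that autophosphorylates at new adhesions, averaged -1.22 ± 0.27 in the single and -1.14 ± 0.26 in the mix cultures (SD, n = 3) at its brightest of 4 probes, with an interval of -0.14 to 0.31. SRC, which phosphorylates FAK and its partners, averaged 4.10 ± 0.24 and 4.12 ± 0.18, with an interval of -0.23 to 0.27. The 2 probes of PTK2B, the FAK-related PYK2, gave -0.11 and -0.06. These are transcript levels and say nothing of phosphorylation.

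Among the adaptors and actin regulators, VASP had the largest fall among the tested member probes. VASP sits at focal adhesions and at the leading edge, where it promotes the growth of actin filaments. Its probe A_11_P0000019971 (chr1:110050161-110050220) read 5.28, 5.32 and 5.26 in the single and 4.04, 4.39 and 4.42 in the mix cultures. The single cultures were alike, and every mix culture was lower. The difference was -1.01 on the log2 scale, a 2.01-fold fall, with an SE of 0.16 and an adjusted p of 0.0512 by limma without a block. With the slide as a block it was -1.01 ± 0.11 (SE, adjusted p 0.00228 by limma), and it was -1.24 on slide 1 and -0.89 on slide 2. VASP rested on 1 probe.

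PXN (paxillin), the adaptor that recruits FAK, averaged -3.59 ± 0.47 and -3.67 ± 0.29 (SD, n = 3), with an interval of -0.49 to 0.32. TGFB1I1 (HIC-5), a paxillin relative, differed by -0.10 ± 0.14 (SE, slide as a block). The 2 probes of TNS1, a tensin that binds beta tails and actin, gave -0.30 and -0.02. None of these was called in either fit.

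**Figure D3:**
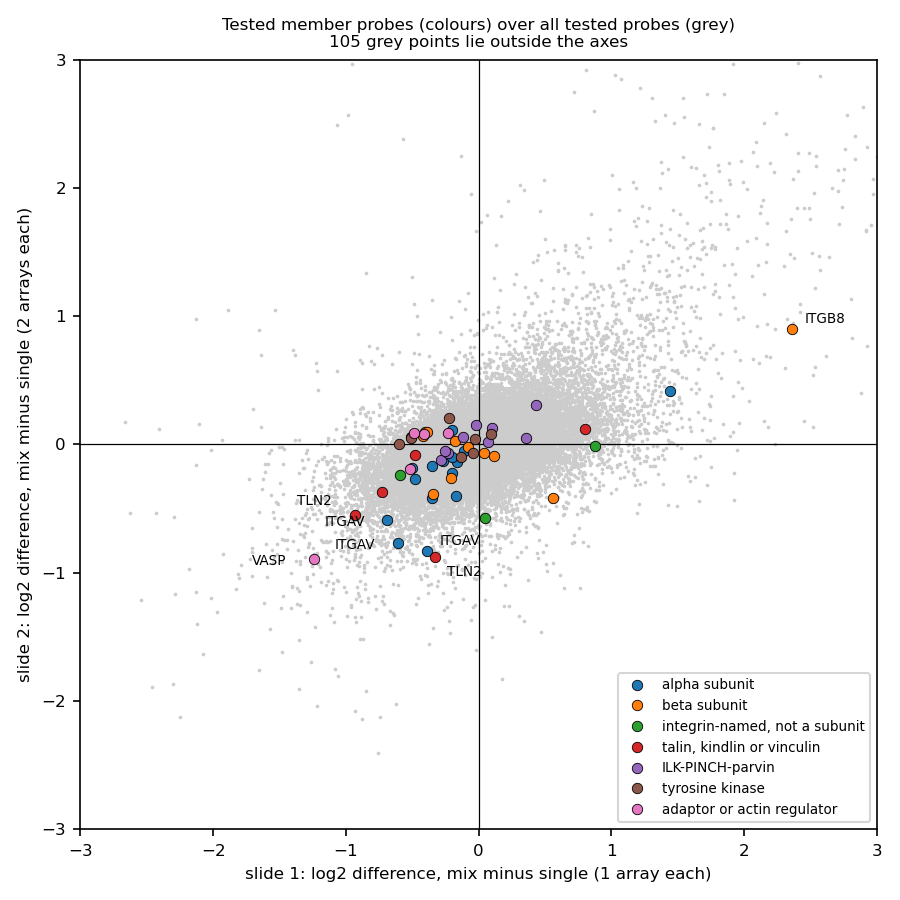
Difference in normalised log2 intensity, mix minus single culture, on slide 1 (1 array per group, horizontal) against slide 2 (2 arrays per group, vertical), for all tested probes in grey and the 56 tested member probes in colour. The called probes, which carry their gene names, lie in the lower left and, for ITGB8, the upper right, so their sign was the same on both slides. TLN2 A_11_P201538 was not well above background on the mix culture arrays of slide 2.

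Each slide held both cultures, so the comparison could be made within each. Of the 56 member probes, 28 were lower in the mix culture on both slides (50%, against 42.3% of all tested probes), 8 were higher on both (14.3%, against 28.4%) and 20 differed in sign. The median difference of the members was -0.23 on slide 1, from 1 array per group, and -0.07 on slide 2, against -0.06 and -0.04 for all tested probes. On slide 2 alone limma called 4 member probes (7.14%, against 3.69% of all tested probes). They were VASP (adjusted p 0.0103), ITGAV A_11_P119321 (0.0258) and A_11_P142398 (0.0205), and TLN2 A_11_P201538 (0.0278). That TLN2 probe was not well above background on either mix culture array of slide 2, so its call there is no support for a change.

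The calls with the slide block differed in how far they rested on single arrays. When either slide 1 array was left out, the slide term absorbed the other. These 2 of the 6 fits thus repeat the comparison on slide 2 alone and are not separate support. VASP and ITGAV A_11_P119321 were called in 6 of 6 fits that each left out 1 array, with adjusted p-values by limma of 0.00779 to 0.0156 and 0.026 to 0.0461. ITGAV A_11_P057346 was called in 4 of 6, reaching 0.053 without mix culture replicate 1 and 0.0537 without single culture replicate 1. ITGAV A_11_P142398 was called in 2 of 6, when either slide 1 array was left out, which is the slide 2 result again. It otherwise gave 0.0536 to 0.109. ITGB8 was called in 2 of 6 as well. It was lost without either slide 1 array (0.0722 and 0.0729), without mix culture replicate 3 (0.0682) and without single culture replicate 3 (0.123). TLN2 A_11_P0000023527 was called in 3 of 6 and A_11_P201538 in 2 of 6. Each of the 7 kept its sign in all 6 fits, with ITGB8 between 0.90 and 1.71.

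For 19 probes, no test was made because the signal was too dim. ITGA4, ITGA8, ITGA11, ITGAD, ITGAL, ITGAX, ITGBL1, LIMS2 and PARVB were not well above background on any array at any probe. ITGAD, ITGAL, ITGAX, ITGAM and ITGB2 are alpha and beta chains of leukocyte integrins, and ITGA4 and ITGA8 are known from leukocytes and mesenchyme. Their dim probes, together with all others never above background, read 0.862 to 4.21 intensity units, while the dimmest spots well above background read 4.19 to 4.48. ITGAM was marked well above background by the scanner software on 1 mix culture array at 1 of its 4 probes. ITGB2 was dim at 1 probe and well above background on all 6 arrays at the other, where it differed by -0.02.

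VCL (vinculin), which ties talin to actin, had 1 probe, well above background only on single culture replicate 1. It read 8.91, 2.24 and 2.14 intensity units in the single and 4.46, 1.48 and 1.38 in the mix cultures, so no fold is given. FERMT1 (kindlin-1), the epithelial kindlin, was well above background on 2 of 3 arrays in each group and was not tested. A dim probe limits what this stretch of a transcript shows and does not say that the gene was silent.

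**Figure D4:**
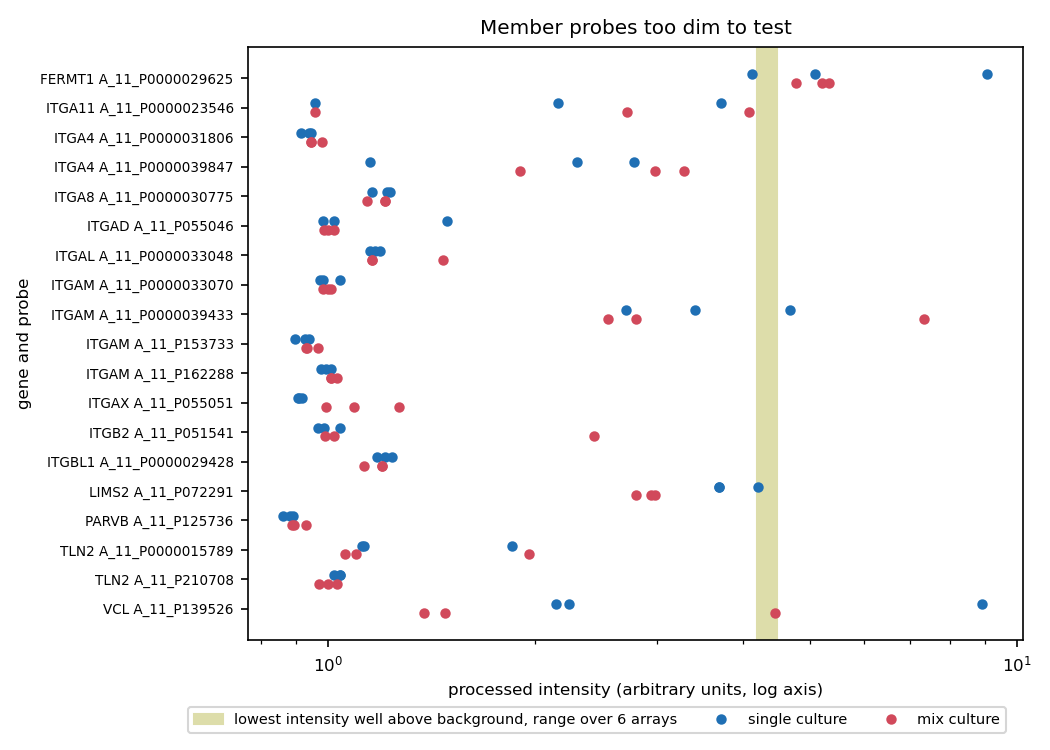
Processed intensity, on a log axis, of the 19 member probes too dim to test, with single cultures in blue and mix cultures in red. The shaded band is the range, over the 6 arrays, of the lowest intensity called well above background (4.19 to 4.48), and 16 of the 19 probes were well above background on no array.

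A wider list of 68 adhesion genes with a probe, such as actinins, LIM proteins, tetraspanins and small GTPases, was read at 1 probe per gene. Of 60 tested genes, limma called 0 without a block, against 0.883% of all tested probes. At an unadjusted p under 0.05 there were 7, against 8.71% of all tested probes. With the slide as a block, limma called 6 (10%, against 7.2% of all tested probes), 2 higher and 4 lower. The 5 largest were SORBS2, SDC1, CAV1, ACTN1 and CD9, and the other was CD47, a partner of integrins at the membrane, which rose by 0.45 on the log2 scale (adjusted p 0.0339). SORBS2, a vinculin-binding adaptor also called ArgBP2, rose from -0.51 ± 0.26 to 0.96 ± 0.41 (SD, n = 3), a difference of 1.47 with an adjusted p of 0.00161 by limma with the slide block and 0.0583 without. CAV1 (caveolin-1), a membrane scaffold, fell from 6.93 ± 0.08 to 6.26 ± 0.10, a difference of -0.67 (adjusted p 0.0108 by limma with the slide block).

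The proteoglycan SDC1 fell by 0.68 and the actin crosslinker ACTN1 by 0.52 on the log2 scale, with adjusted p-values of 0.0288 and 0.0375 by limma with the slide block. The tetraspanin CD9, a lateral partner of integrins, fell by 0.48 (adjusted p 0.0389). With the replicate block, under which 5.26% of all tested probes were called, SORBS2, CAV1 and SDC1 were called and the other 3 were not. The median difference over the 60 genes was -0.18.

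Of the integrin ligands, 16 were tested, with 0 called by limma without a block, against 0.883% of all tested probes. At an unadjusted p under 0.05 there were 2, against 8.71% of all. With the slide as a block, 2 were called lower (12.5%, against 7.2% of all). TGFB1, whose latent form ITGAV pairs bind, fell by 0.64 (adjusted p 0.0125, and 0.029 with the replicate block). LAMB3, a chain of the basement membrane laminin-332, fell by 0.56 (adjusted p 0.0448, lost at 0.0726 with the replicate block). ITGAV and TGFB1 were both lower and ITGB8 higher in the fit with the slide block, and none of these genes was called without it. A link between these differences was not tested. From these microarray data the paper reports no evident change in TGF-beta pathway activity.

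The labelled cell type was checked with markers. All 11 kidney epithelial markers with a probe were well above background on all 6 arrays. Of these, limma called 0 without a block and 2 with the slide block (18.2%, against 7.2% of all tested probes). Both were lower in the mix culture, CDH1 (E-cadherin, -0.47, adjusted p 0.0444) and CLDN4 (claudin-4, -0.87, adjusted p 0.0136). Over the 11 markers, 9 lay below 0 and 2 above, PAX8 at 0.47 and CLDN1 at 0.35, which were not called. The summed intensity of the 11 was 123761 to 150735 in the single and 112515 to 128148 in the mix cultures. Of 10 leukocyte markers, 5 were well above background on all arrays, and PTPRC, LCP2, CD53 and SPI1 on none. The leukocyte sums were 285 to 401 in the single and 274 to 400 in the mix cultures. Of the 5 tested leukocyte markers, 1, CORO1A, was called lower with the slide block (20%, against 7.2% of all tested probes). Of 10 stromal markers, 5 were well above background on all arrays, namely VIM, COL1A2, PDGFRB, THY1 and ACTA2. None of these 5 was called, and they were the only ones tested. COL3A1, DCN, PDGFRA and POSTN were well above background on no array. The summed intensity of the stromal markers, led by VIM, was 45497 to 53680 in the single and 57761 to 61491 in the mix cultures. The part of these marker differences in the integrin results was not tested.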

How the data were processed

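The authors deposited, per array, Agilent Feature Extraction scanner files of spot intensity on a linear scale, with background subtracted within each array (version 11.5.1.1 on slide 1 and 12.1.1.1 on slide 2). A second table from the authors holds log2 values whose steps are not given in the sources used here, used as an alternative. In that table the median over the arrays of each slide was 0 within 0.02 for 100% of probes, which shows centring by slide. Total RNA of sorted cells was labelled with Cy3 on a canine 44K array.

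From the scanner files, outlier spots were dropped (5 to 9 per array, 0 saturated spots), spots of a probe were averaged, and the 75th percentile of log2 intensity was subtracted per array (161.03 to 232.67 intensity units). The share of spots well above background was 61.11% to 65.66%. Groups came from the sample titles. limma 3.58.1 (R 4.3.3) compared them on 26621 probes, two-sided, with Benjamini-Hochberg adjustment over all of them. The main fit had no block, after the methods' unpaired test. Alternatives were the slide and the replicate number as blocks, each slide alone, quantile normalization, normexp (offset 50), other filters, the methods' t-test, the deposited log2 table and leaving out each array. The limma script was tested on simulated data. The 6 arrays limit the precision.

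Same-numbered arrays deviated together (correlations of 0.801, 0.53 and 0.572), but slide 2 arrays of different numbers did so more (0.61 and 0.632). These values therefore do not show that the number pairs the arrays, and it was used as a block only as an alternative. Replicate 1 is also slide 1, so the replicate block is not an independent check on the slide block. Mix culture replicates 2 and 3 of the scanner files matched the columns of replicates 3 and 2 in the deposited table (correlations of 0.991 and 0.997, against 0.469 and 0.481 for the same numbers), so which of these arrays bears which number is unsure. This touches the replicate block and the naming of these 2 arrays, but not the fits by group or slide.

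Named were all member probes called in either fit, the brightest probe of 14 core genes, dim genes, and, of the other lists, the genes called without a block and up to 5 called with the slide block. CD47 and ITGB7 were added after their values were seen. The members and lists were chosen with earlier results of these data known. Gene names are those of the array design, and all 40 are symbols in the RefSeq table of UU_Cfam_GSD_1.0. Positions are on CanFam3.1, and exon context was not used here.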

Additional observations from a re-analysis of the deposited data

How the results depend on the processing

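The block decided most calls among the members. Without a block, 0 member probes were called, against 0.883% of all tested probes. The slide block gave 7 (12.5%, against 7.2%), the replicate block 6 (10.7%, against 5.26%) and slide 2 alone 4 (7.14%, against 3.69%). Normexp gave 1 of 56 (VASP), against 101 of the 26621 tested probes. The deposited log2 values gave 12 of 56, against 4077 of all tested probes. Quantile normalization, both other filters, the methods' t-test and leaving out any 1 array gave 0. The deposited table is centred within slides, so its fit removes the slide without counting it. Over all tested probes, 235 calls became 1917 with the slide block, 1399 with the replicate block, 983 on slide 2 alone, 101 with normexp, 143 with the filter on all 6 arrays, 8 by the methods' t-test, 4077 with the deposited table and 92 to 247 when 1 array was left out (92 without single culture replicate 3 or mix culture replicate 2, 99 without mix culture replicate 3).

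Alternatives that join the slide block with another choice were chosen after seeing the data. They gave 6 member calls with quantile normalization or normexp, 7 with the filter on all 6 arrays, 3 (VASP and 2 ITGAV probes) with no filter, and 3 to 6 when 1 array was left out, with 3 without single culture replicate 3. The fits without a slide 1 array repeat slide 2 alone. VASP and 2 ITGAV probes, A_11_P119321 and A_11_P057346, stayed called in each of the first 4. Only the filter on all 6 arrays has the share over all such probes beside it (13% of members, against 7.22%). The other counts of these joined fits are not read against a background. The replicate block with mix culture numbers 2 and 3 exchanged, also added, called 1447 probes and 6 members, among them TLN2 A_11_P201538 but not ITGB8 (adjusted p 0.0511). Called genes of the wider adhesion list went from 0 to 6 with the slide block, 3 with the replicate block and 0 to 1 when 1 array was left out, and ligands from 0 to 2 and 1 with the 2 blocks.

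The median member difference of -0.11 was -0.23 on slide 1, and moved by less than its spread between arrays (0.073) under the normalizations, filters and tables. The blocks could not move it, since each slide and each replicate number held both cultures in equal number. The methods' t-test compares the same means. The median ran from -0.19 (without mix culture replicate 3) to -0.09 when 1 array was left out. Members near 0 changed sign. ITGB1 became 0.05 with quantile normalization and with the deposited table. ITGA3 became 0.03 with each of those and 0.00 with normexp. On slide 2 alone PXN became 0.08 and TLN1 0.06. When 1 array was left out, ITGB1 ran from -0.29 to 0.23, ITGA3 from -0.30 to 0.17, ITGB6 from -0.29 to 0.13, PTK2 from -0.07 to 0.23, PXN from -0.30 to 0.17, TLN1 from -0.35 to 0.07, ILK from -0.61 to 0.32 and SRC from -0.09 to 0.14. The 7 probes of ITGAV, ITGB8, TLN2 and VASP kept their sign under every alternative run. For the blocks and the t-test this was fixed by the design. These probes were also picked for differing between the same arrays. Signal near background limits TLN2, and 1 probe each limits VASP and ITGB8.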

Other observations

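Some probes of the array design carried an identifier in place of a gene name but a description that assigned them to a focal adhesion gene or integrin. These were looked up after the data had been seen. There were 22 such probes for 12 genes, 19 of them tested, with 0 called by limma without a block and 1 with the slide as a block, a share below the 7.2% of all tested probes. That probe was A_11_P092961 of FERMT2 (kindlin-2), the kindlin of most tissues, which fell by 0.53 (adjusted p 0.0219 by limma with the slide block). The other FERMT2 probes, A_11_P0000014930 and A_11_P189848, differed by -0.02 and -0.13. ZYX (zyxin), a LIM protein of mature adhesions, differed by -0.24 to -0.12 over 3 probes. BCAR1 (p130Cas), a substrate of FAK and SRC, differed by -0.39 to 0.05 over 6 probes. PARVA (alpha-parvin), a partner of ILK, differed by -0.26 and -0.17. The largest difference among these probes was that of ITGB7 (A_11_P0000022918), the partner of ITGAE, at 0.70 (adjusted p 0.175 by limma with the slide block). It was -0.14 on slide 1 and 1.12 on slide 2, where the adjusted p was 0.0623. FERMT1, too dim at the probe with its name, was well above background on all 6 arrays at a probe assigned by description, where it differed by -0.18.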
